A study of Homo sapiens with 10 samples.

Results

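The 32 genes described here encode the enzymes of cholesterol and fatty acid synthesis and the proteins that control them. They were taken by symbol from the 58174 genes of the deposited table, as 8 mevalonate pathway genes, 11 squalene and sterol synthesis genes, 6 genes of SREBP control and sterol transport, and 7 genes of fatty acid synthesis and desaturation. RNA sequencing was done on SH-SY5Y, an established human neuroblastoma line with a catecholamine-producing phenotype, in 10 libraries of 4 groups. In the knockdown experiment, a pool of siRNAs (small interfering RNAs) that targets TDP-43 gave 3 libraries, siTDP-43, and a control siRNA pool gave 3, siControl. Both pools were transfected with a lipid reagent at a final 50 nM over 96 hours. The genotype experiment held 2 libraries of genome-edited cells homozygous for mutant TDP-43 N352S (N352S) and 2 of cells labelled wild type. TDP-43, the product of TARDBP, is a nuclear RNA-binding protein implicated in amyotrophic lateral sclerosis. All cells were grown in the same serum-containing medium. The libraries are described as biological replicates with no separate cultures or clones named, so a genotype effect and a clone effect cannot be told apart, and each p-value refers to library-to-library spread, which may be technical.

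Cholesterol is built from acetyl-CoA through mevalonate, isoprenoid diphosphates, squalene and lanosterol, and the isoprenoid intermediates also feed protein prenylation, dolichol and coenzyme Q. Fatty acids are built from cytosolic acetyl-CoA by a carboxylase and a synthase, then elongated and desaturated. Both routes are transcribed under the sterol regulatory element-binding proteins (SREBPs), which the escort protein SCAP carries to the Golgi for cleavage when membrane sterol is low and which the INSIG proteins hold in the endoplasmic reticulum when it is high. The brain makes nearly all of its own cholesterol, since lipoproteins of the blood do not cross into it.

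The sequence just upstream of the start site is shown for 4 members that mark the main patterns. SCD had the largest called decrease after knockdown, and MVK the largest increase in N352S. FDPS was called in opposite directions in the 2 comparisons, and SREBF1 encodes a regulator of the set that was called in N352S. Each run is the 250 bases before the start in the RefSeq promoter table (GRCh38.p14), written 5′ to 3′ on the gene's strand. Capitals mark the CCAAT box (CCAAT, or ATTGG on the other strand), the short sterol regulatory element TCACNCCA and the E-box CACGTG, each searched on both strands.
SCD, chr10:100346983-100347232, plus strand: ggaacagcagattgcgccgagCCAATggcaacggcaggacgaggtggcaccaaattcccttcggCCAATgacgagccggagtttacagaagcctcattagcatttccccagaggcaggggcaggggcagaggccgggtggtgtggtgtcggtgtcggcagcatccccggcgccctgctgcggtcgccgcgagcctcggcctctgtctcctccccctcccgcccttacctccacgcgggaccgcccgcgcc
MVK, chr12:109573544-109573793, plus strand: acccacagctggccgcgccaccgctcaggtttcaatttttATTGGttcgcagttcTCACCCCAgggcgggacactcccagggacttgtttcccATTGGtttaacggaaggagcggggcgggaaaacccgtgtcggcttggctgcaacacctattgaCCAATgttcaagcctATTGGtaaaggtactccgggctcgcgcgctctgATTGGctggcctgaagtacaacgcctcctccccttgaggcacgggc
FDPS, chr1:155308616-155308865, plus strand: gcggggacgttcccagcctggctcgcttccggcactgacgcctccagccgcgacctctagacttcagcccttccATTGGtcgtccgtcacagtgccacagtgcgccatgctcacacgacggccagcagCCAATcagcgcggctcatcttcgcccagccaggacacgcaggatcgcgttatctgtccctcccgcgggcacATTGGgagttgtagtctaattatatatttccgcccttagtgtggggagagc
SREBF1, chr17:17836987-17837236, minus strand: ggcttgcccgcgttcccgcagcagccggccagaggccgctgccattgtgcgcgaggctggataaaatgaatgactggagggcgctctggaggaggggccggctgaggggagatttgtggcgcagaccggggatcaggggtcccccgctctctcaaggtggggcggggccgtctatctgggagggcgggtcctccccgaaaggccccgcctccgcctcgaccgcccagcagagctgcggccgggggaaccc
The MVK run held 5 CCAAT boxes and 1 match to the short element, TCACCCCA. The FDPS run held 3 CCAAT boxes, the SCD run 2, and the SREBF1 run none of the 3 motifs.

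Over windows of 300 bases (250 before and 50 after the start), 28 of the 32 members had an entry in that table. A CCAAT box was present in 21 of those 28 members, against 39.7% of all 27305 genes in the table and 42.1% of its 15843 protein-coding genes. The short sterol element, chosen after the MVK sequence had been read, matched in 3 members (MSMO1, MVK and SREBF2). It matched in 4.80% of all genes and 4.92% of protein-coding genes. Its longer form TCACNCCAC, which contains the short one, matched in SREBF2, against 1.39% of all genes and 1.51% of protein-coding genes. The E-box matched in INSIG1, LSS, SC5D and SCAP, against 8.77% of all genes and 10.9% of protein-coding genes. A GC box (GGGCGG), not marked in the runs above, was present in 27 of the 28 members, against 48.3% of all genes and 64.3% of protein-coding genes. By call, a CCAAT box was found in 11 of the 13 members with an entry that fell after knockdown and in 10 of the 15 that were not called. A match describes these letters and is not a measurement of a bound factor.

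Levels are given as TPM, a length-adjusted share of each library's transcripts, so levels can be compared between genes, and the depth of each library is unknown. TARDBP was at 256 TPM in each siControl library and at 62.3, 63.1 and 67.7 TPM in siTDP-43, and at 196 and 205 TPM in wild type and 123 and 122 TPM in N352S. The 12 noradrenergic markers of the line were all at a mean of at least 1 TPM, and summed to 5384 to 5570 TPM in siControl, 6014 to 6208 in siTDP-43, 5636 to 5745 in wild type and 5328 to 5593 in N352S. Of 8 mesenchymal markers, 7 reached that level, summing to 224 to 261 TPM in siControl, 315 to 338 in siTDP-43, 202 to 231 in wild type and 276 to 282 in N352S. Hepatocyte and adipocyte markers (0 of 8 at that level) summed to 0.43 to 1.15 TPM in siControl, 0.71 to 1.23 in siTDP-43, 1.33 to 1.38 in wild type and 1.52 to 1.59 in N352S. Of 8 epithelial and immune markers EPCAM alone reached it, with CD3E listed at 0 in every library, and they summed to 0.99 to 1.58 TPM in siControl, 1.33 to 1.52 in siTDP-43, 2.23 to 2.72 in wild type and 4.85 to 5.38 in N352S. Mitochondrial genes held 12.0 to 14.3% of TPM in siControl, 15.5 to 16.2% in siTDP-43 and 13.6 to 14.8% over the genotype libraries. The noradrenergic and mesenchymal sums did not overlap between the groups of either comparison, nor did the hepatocyte and adipocyte or the epithelial and immune sums between wild type and N352S, and the part of these markers in the results was not tested. In bulk RNA, fewer cells of a type and less RNA per cell cannot be told apart.

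After TDP-43 knockdown, 16 of the 32 genes fell and none rose. The decreases covered 5 of 8 mevalonate pathway genes, 6 of 11 sterol genes, 4 of 7 fatty acid genes and 1 of the 6 genes of SREBP control and transport. Transcript of SCD, the stearoyl-CoA desaturase that makes monounsaturated fatty acids, was at 50.6% of its siControl mean, and the other 15 decreases left between 71.2% (TM7SF2) and 90.1% (SC5D). The call is a Benjamini-Hochberg adjusted p under 0.05 in a limma fit over the 17118 genes that averaged 1 TPM or more across the libraries, as all 32 members did, and changes are log2 fold changes of TPM + 1 with their SE. Over all tested genes, 19.8% were called lower and 6.19% higher by this rule. Without adjustment, 21 members were lower and 0 higher at p under 0.05. The median log2 fold change was -0.19 over the members and -0.08 over all tested genes, and 28 of 32 members (87.5%) lay below 0, against 64.6% of all tested genes. With median-of-ratios scaling, 10 members were lower and 1 higher, against 12.1% and 11.4% of all tested genes, and the members' median was -0.10 against 0.00.

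**Figure D1:**
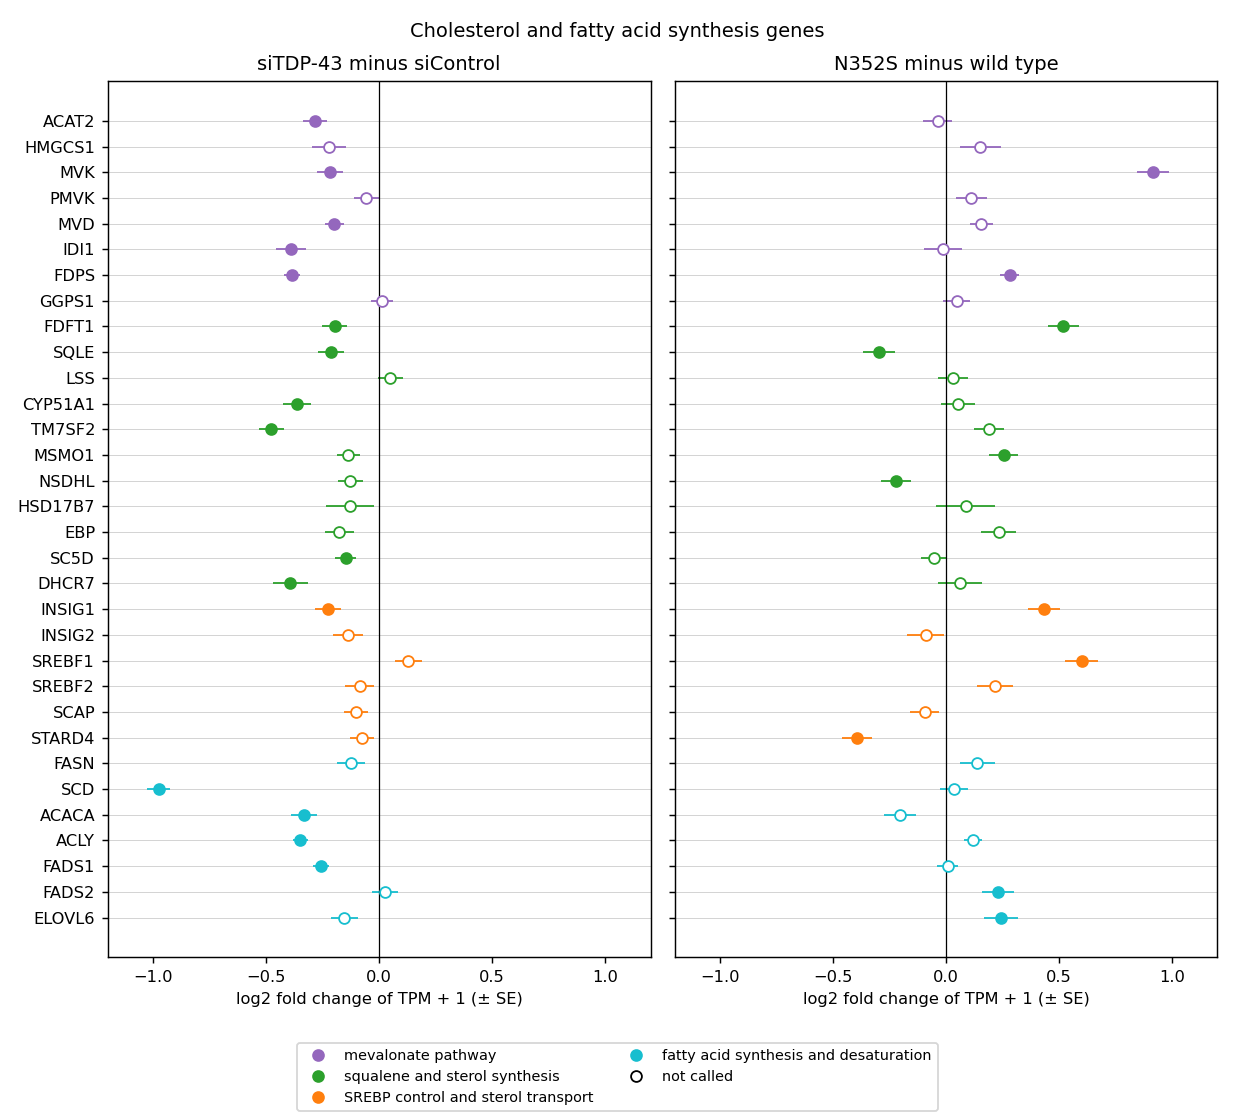
Log2 fold change of TPM + 1 (horizontal axis, with SE) for each of the 32 members (vertical axis, coloured by role) in siTDP-43 against siControl (left) and N352S against wild type (right). Filled points are called and open points are not, with 16 filled points below 0 on the left, and 8 above and 3 below 0 on the right.

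Within the mevalonate pathway, ACAT2, MVK, MVD, IDI1 and FDPS fell after knockdown. FDPS makes farnesyl diphosphate, the branch point to sterols and prenyl groups, and lies at chr1:155308748-155320666 (plus strand, GENCODE 29, hg38). It was at 248, 264 and 267 TPM in siControl and at 194, 202 and 199 TPM in siTDP-43. The siTDP-43 libraries all lay below the lowest siControl library, with a log2 fold change of -0.39 (SE 0.04, adjusted p = 0.000157). IDI1, which interconverts the isoprene units, went from 51.4 ± 3.1 to 39.0 ± 1.8 TPM (SD, n = 3 and 3, adjusted p = 0.00349). ACAT2, the cytosolic thiolase at the start of the route, went from 100.05 ± 6.34 to 82.0 ± 1.7 TPM (adjusted p = 0.00486). The ACAT2 locus overlaps TCP1 on the opposite strand, and TCP1 was also called lower (log2 -0.19, adjusted p = 0.0218). MVD, the decarboxylase, went from 29.7 ± 0.51 to 25.8 ± 1.00 TPM (adjusted p = 0.00868), and its call was lost with median-of-ratios scaling and with quantile normalization (adjusted p = 0.0781 and 0.0833).

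MVK encodes mevalonate kinase and lies at chr12:109573255-109598117 (plus strand). It was at 24.1, 27.2 and 26.1 TPM in siControl and at 21.3, 23.6 and 21.2 TPM in siTDP-43. The highest siTDP-43 library lay just below the lowest siControl library, and the change was small, at -0.22 (SE 0.06, adjusted p = 0.0223). That call was lost without siControl 2 or 3 or without siTDP-43 1 or 3 (adjusted p = 0.0574 to 0.0793) and with only the groups compared in the fit (adjusted p = 0.0549). It was also lost with median-of-ratios scaling and with quantile normalization (log2 -0.14 and -0.13, adjusted p = 0.118 and 0.132). Of the other members, HMGCS1, which makes HMG-CoA, went from 44.6 ± 5.1 to 38.0 ± 1.4 TPM and missed the threshold (adjusted p = 0.0554). It passed without siControl 1 (adjusted p = 0.00549). PMVK, the phosphomevalonate kinase, was at 64.2 ± 4.2 and 61.6 ± 2.9 TPM. GGPS1, which makes geranylgeranyl diphosphate, was at 104 ± 2.5 and 105 ± 2.7 TPM. Neither was called, and for both genes the libraries of the 2 groups overlapped.

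In squalene and sterol synthesis, FDFT1, SQLE, CYP51A1, TM7SF2, SC5D and DHCR7 fell after knockdown. TM7SF2, a sterol reductase acting after lanosterol, lies at chr11:65111845-65116384 (plus strand). It was at 38.3, 40.1 and 41.6 TPM in siControl and at 27.1, 30.6 and 27.7 TPM in siTDP-43. All siTDP-43 libraries lay well below siControl, with a log2 fold change of -0.48 (SE 0.06, adjusted p = 0.00047). The TM7SF2 locus overlaps VPS51 on the same strand, and VPS51 was not called (log2 0.02, adjusted p = 0.774). DHCR7, the reductase of the last step to cholesterol, lies at chr11:71428193-71452868 (minus strand). It was at 33.5, 39.0 and 35.6 TPM in siControl and at 27.2, 28.0 and 26.2 TPM in siTDP-43. Its groups did not overlap either, with a log2 fold change of -0.39 (SE 0.08, adjusted p = 0.00654). CYP51A1, the lanosterol demethylase, went from 56.0 ± 3.7 to 43.3 ± 3.1 TPM (adjusted p = 0.00292).

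The remaining sterol calls after knockdown were smaller. FDFT1, squalene synthase, was at 136, 133 and 132 TPM in siControl and at 129, 113 and 109 TPM in siTDP-43. Its first siTDP-43 library was close to siControl, and the log2 fold change was -0.20 (SE 0.06, adjusted p = 0.031). The call was lost without any one of siControl 1, 2 and 3 or siTDP-43 2 and 3 (adjusted p = 0.0592 to 0.101). It was also lost with median-of-ratios scaling and with quantile normalization (log2 -0.11 in both, adjusted p = 0.235 and 0.229), without the mitochondrial genes (adjusted p = 0.0884), and, at an unchanged fold, with no filter, only the groups compared or no variance trend (adjusted p = 0.0752, 0.0686 and 0.0588). SQLE, the squalene epoxidase, was at 52.0, 52.7 and 57.5 TPM in siControl and at 49.9, 45.3 and 44.4 TPM in siTDP-43. The groups did not overlap, with a log2 fold change of -0.21 (SE 0.06, adjusted p = 0.0249), and the call was lost without siControl 3 or siTDP-43 2 or 3 (adjusted p = 0.0708 to 0.0888). The SQLE call was also lost with quantile normalization and with median-of-ratios scaling (log2 -0.13 in both, adjusted p = 0.137 and 0.139), and without the filter or the mitochondrial genes (adjusted p = 0.0551 and 0.0526). SC5D, a sterol desaturase, went from 44.7 ± 1.1 to 40.3 ± 2.0 TPM (adjusted p = 0.0475), and lost its call in 16 of 22 refits, 7 of which left out 1 library (siControl 1, 2 or 3, siTDP-43 1 or 3, or wild type 79 or 80, adjusted p = 0.0635 to 0.155). Pairing the siRNA libraries by replicate number also ended the SC5D call (adjusted p = 0.0693) and gave one to EBP, the sterol isomerase (adjusted p = 0.0475), which was at 65.4 ± 2.0 and 57.9 ± 5.0 TPM. LSS, MSMO1, NSDHL and HSD17B7, which cyclise squalene epoxide and process the lanosterol methyl groups, were at 104%, 90.6%, 91.3% and 91.2% of their siControl means and were not called. NSDHL passed without siTDP-43 2 (adjusted p = 0.0331), and EBP passed without siTDP-43 3 (adjusted p = 0.0465).

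Among the fatty acid genes, SCD at chr10:100347124-100364834 (plus strand) had the largest change of any member. It was at 158, 165 and 171 TPM in siControl and at 83.6, 88.3 and 77.8 TPM in siTDP-43. The siTDP-43 libraries were far below every siControl library, with a log2 fold change of -0.97 (SE 0.05, adjusted p = 8.06e-06). The 20 nearest tested protein-coding genes had a median log2 fold change close to 0 in the same comparison. Around the 32 members this median (over fewer neighbours for IDI1 and LSS) ran from -0.26 at HMGCS1 to 0.06 at DHCR7. The members' own changes there were -0.22 and -0.39. Among members called lower, the lowest neighbour median was -0.19 at ACACA, whose own change was -0.33. Whether neighbours share a change was not tested. ACLY, which makes cytosolic acetyl-CoA from citrate, went from 177 ± 3.6 to 139 ± 4.1 TPM (log2 -0.35, SE 0.03, adjusted p = 0.000183). The ACLY locus overlaps AC125257.2 on the opposite strand, at a mean of 87.7 TPM over the libraries, whose change is not given here. ACACA, the acetyl-CoA carboxylase of the committed step, went from 51.4 ± 3.5 to 40.5 ± 0.85 TPM (adjusted p = 0.00343). FADS1, a desaturase of polyunsaturated fatty acids, went from 85.8 ± 1.7 to 71.6 ± 2.1 TPM (adjusted p = 0.00137). Its neighbour FADS2, which overlaps it on the opposite strand and acts before it in the same route, was at 285 ± 17 and 290 ± 15 TPM and was not called. FASN, the fatty acid synthase, was at 121 ± 9.0 and 111 ± 6.8 TPM and was not called. ELOVL6, an elongase, was at 40.7 ± 2.1 and 36.5 ± 2.7 TPM and was called without siTDP-43 2 alone of the libraries (adjusted p = 0.0334).

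**Figure D2:**
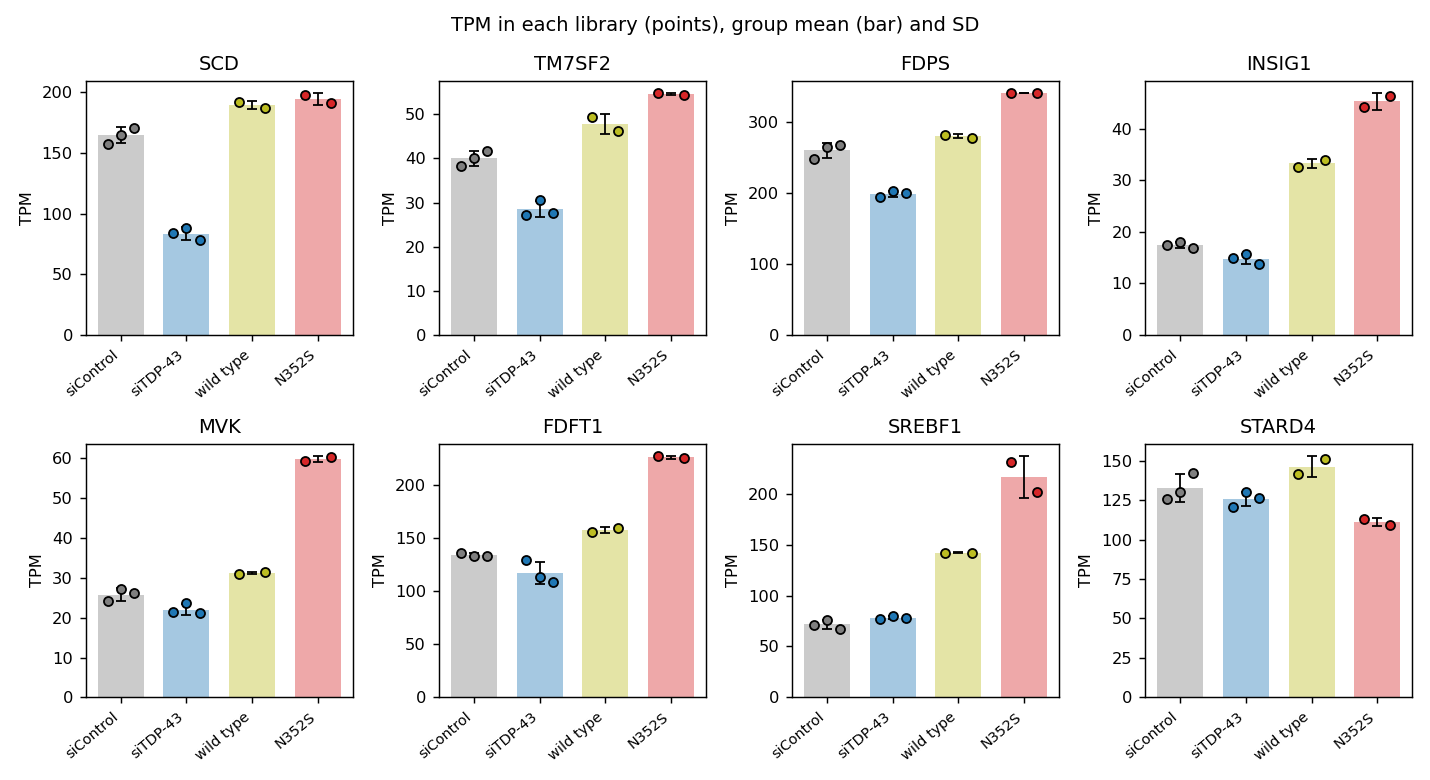
TPM (vertical axis) of 8 members in the 4 groups (horizontal axis), with points for libraries, bars for group means and error bars for the SD (n = 3 for siControl and siTDP-43, n = 2 for wild type and N352S). SCD and TM7SF2 are low in siTDP-43, FDPS, INSIG1, MVK and FDFT1 are low in siTDP-43 and high in N352S, SREBF1 is high in N352S, and STARD4 is low in N352S.

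Of the 6 genes of SREBP control and sterol transport, INSIG1 alone was called after knockdown. INSIG1, the sterol sensor partner that is itself an SREBP target, was at 17.4, 18.1 and 16.9 TPM in siControl and at 15.0, 15.6 and 13.7 TPM in siTDP-43. Its groups did not overlap, with a log2 fold change of -0.23 (SE 0.06, adjusted p = 0.018), and the call was lost without siControl 2 or siTDP-43 3 (adjusted p = 0.0594 to 0.0631). It was also lost with median-of-ratios scaling and with quantile normalization (log2 -0.15 and -0.12, adjusted p = 0.126 and 0.181). INSIG2, its paralogue, was at 31.9, 34.9 and 31.4 TPM in siControl and at 28.2, 31.3 and 29.4 TPM in siTDP-43. The siTDP-43 values lay just below those of siControl and INSIG2 was not called (log2 -0.14, SE 0.07, adjusted p = 0.159). SREBF1, the gene of SREBP-1, was at 71.6, 76.4 and 66.8 TPM in siControl and at 76.9, 80.1 and 77.8 TPM in siTDP-43. SREBF1 was the one member with every siTDP-43 library above every siControl library, and it was not called (log2 0.13, SE 0.06, adjusted p = 0.152). With median-of-ratios scaling and with quantile normalization it was called higher (adjusted p = 0.0312 and 0.0478).

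SREBF2, the gene of SREBP-2, was at 50.2, 48.2 and 43.7 TPM in siControl and at 44.6, 47.2 and 41.9 TPM in siTDP-43. SCAP, the escort of both, was at 51.3, 50.3 and 47.1 TPM in siControl and at 46.6, 43.8 and 48.0 TPM in siTDP-43. The libraries overlapped for both genes and neither was called (adjusted p = 0.361 for SREBF2 and 0.197 for SCAP). STARD4, a cytosolic carrier of cholesterol, was at 126, 130 and 142 TPM in siControl and at 121, 130 and 126 TPM in siTDP-43. Its groups also overlapped (adjusted p = 0.332). Over all 32 members, every siTDP-43 library lay below every siControl library for 21 genes and above for 1, against 31.7% and 11.9% of all tested genes. The geometric mean TPM of the 32 members was 58.5 to 61.5 per library in siControl and 50.0 to 53.4 in siTDP-43. The 10 calls kept in each of the 22 refits were those of ACAT2, IDI1, FDPS, CYP51A1, TM7SF2, DHCR7, SCD, ACACA, ACLY and FADS1. One of these refits left out the mitochondrial genes, and gave 13 members lower and 0 higher, against 15.9% and 8.3% of all genes tested in it.

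In cells homozygous for TDP-43 N352S, 8 of the 32 genes rose against wild type and 3 fell. The increases were in MVK and FDPS of the mevalonate pathway, FDFT1 and MSMO1 of sterol synthesis, INSIG1 and SREBF1 of SREBP control, and FADS2 and ELOVL6 of fatty acid synthesis. The decreases were in SQLE, NSDHL and STARD4. Over all tested genes, 8.28% were called higher and 11.9% lower. The median log2 fold change was 0.10 over the members and -0.03 over all tested genes. With median-of-ratios scaling, 12 members were higher and 2 lower, against 10.8% and 9.73% of all tested genes. Every N352S library lay above both wild-type libraries for 17 members and below for 4, against 25.4% and 34.7% of all tested genes, a looser criterion with 2 libraries a group. Without N352S 81, wild type 79 or N352S 82, which left 1 library in a group, fewer members and fewer of all tested genes were called. The members' median was then 0.07, 0.11 and 0.13, against -0.05, -0.04 and -0.02 over all tested genes.

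MVK, mevalonate kinase, had the largest change of any member in N352S. It was at 31.1 and 31.5 TPM in wild type and at 59.4 and 60.4 TPM in N352S. The N352S libraries were at 191% of the wild-type mean, with a log2 fold change of 0.92 (SE 0.07, adjusted p = 4.18e-05). MMAB, an enzyme of cobalamin metabolism, starts on the opposite strand with 289 bases between its start site and that of MVK in the RefSeq table, and the GENCODE gene bodies overlap. MMAB went from 35.0 TPM in wild type to 61.7 TPM in N352S (log2 0.80, SE 0.08, adjusted p = 0.000148) and from 30.4 to 30.3 TPM after knockdown (adjusted p = 0.955). No source used here says whether strand was used in counting, and reads from the shared stretch may have been split between the genes. The 20 nearest tested protein-coding genes around MVK had a median log2 fold change of 0.01 in N352S, with 4 called higher and 3 lower. After knockdown the median of these neighbours was -0.17, with 8 called lower and 2 higher, against -0.22 for MVK itself.

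FDPS was at 282 and 278 TPM in wild type and at 340 TPM in both N352S libraries. Both N352S libraries lay above wild type, with a log2 fold change of 0.28 (SE 0.04, adjusted p = 0.00234). Of the other mevalonate genes, HMGCS1, PMVK and MVD were at 111%, 108% and 112% of their wild-type means, with no overlap between groups, and were not called (adjusted p = 0.28, 0.282 and 0.0624). ACAT2, IDI1 and GGPS1 were at 97.5%, 99.1% and 103% of wild type, with overlapping libraries. MVD, the decarboxylase, was called higher with median-of-ratios scaling (adjusted p = 0.0249).

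In the sterol branch, FDFT1 was at 155 and 159 TPM in wild type and at 227 and 225 TPM in N352S. Squalene synthase transcript was thus at 144% of wild type, with a log2 fold change of 0.52 (SE 0.07, adjusted p = 0.001). SQLE, the next enzyme, went the other way, from 50.4 and 47.6 TPM in wild type to 39.9 and 39.6 TPM in N352S. Its log2 fold change was -0.30 (SE 0.07, adjusted p = 0.0176), and the call was lost without wild type 79, N352S 81 or N352S 82 (adjusted p = 0.0623 to 0.114). NSDHL, the dehydrogenase that removes lanosterol methyl groups, was at 28.4 and 29.2 TPM in wild type and at 24.2 and 24.9 TPM in N352S. Its decrease of -0.22 (SE 0.07, adjusted p = 0.0474) was lost in 14 of 21 refits, 8 of which left out 1 library (siControl 1, 2 or 3, siTDP-43 1 or any genotype library, adjusted p = 0.0553 to 0.175). MSMO1, which oxidises the same methyl groups, went from 38.7 ± 1.9 to 46.4 ± 2.4 TPM (SD, n = 2 and 2, log2 0.26, adjusted p = 0.022). The call was lost with only the groups compared in the fit (adjusted p = 0.082). It was also lost without wild type 79 or N352S 81 (log2 0.20 to 0.21). Adjacent steps of sterol synthesis were called in opposite directions, FDFT1 against SQLE and MSMO1 against NSDHL. LSS, CYP51A1, TM7SF2, HSD17B7, EBP, SC5D and DHCR7 were not called, at 102%, 104%, 114%, 107%, 118%, 96.2% and 105% of their wild-type means. EBP was called higher without siTDP-43 1 (adjusted p = 0.023). With median-of-ratios scaling, EBP and TM7SF2 were called higher (adjusted p = 0.0289 and 0.0328).

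SREBF1 lies at chr17:17810399-17837002 (minus strand) and was at 142 TPM in both wild-type libraries and at 231 and 201 TPM in N352S. Both N352S libraries lay above wild type, with a log2 fold change of 0.60 (SE 0.07, adjusted p = 0.000656). SREBF2 was at 68.6 and 66.7 TPM in wild type and at 82.0 and 75.6 TPM in N352S. It missed the threshold (log2 0.22, SE 0.08, adjusted p = 0.0843) and passed it without siControl 3 (adjusted p = 0.0482). INSIG1, at chr7:155297776-155310235 (plus strand), was at 32.6 and 34.0 TPM in wild type and at 44.2 and 46.5 TPM in N352S. Its increase was 0.43 (SE 0.07, adjusted p = 0.00285). INSIG2 was at 29.7 and 30.5 TPM in wild type and at 26.2 and 30.3 TPM in N352S. SCAP was at 60.8 and 56.5 TPM in wild type and at 53.1 and 56.6 TPM in N352S. Neither was called and their libraries overlapped. STARD4, at chr5:111496033-111512590 (minus strand), was at 141 and 151 TPM in wild type and at 113 and 109 TPM in N352S. It was the member with the largest decrease, at -0.39 (SE 0.06, adjusted p = 0.00315). Of its 20 nearest tested protein-coding genes, 7 were also called lower in N352S, with a median log2 fold change of -0.20. Its antisense transcript STARD4-AS1 was at 20.2 and 20.0 TPM in the wild-type and N352S means. After knockdown STARD4-AS1 was called lower, from 22.1 to 15.6 TPM (log2 -0.48, SE 0.12, adjusted p = 0.0219), while STARD4 was not called.

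Of the fatty acid genes, FADS2 went from 331 ± 15 to 389 ± 20 TPM (log2 0.23, adjusted p = 0.0467) and ELOVL6 from 26.8 ± 0.86 to 31.9 ± 0.95 TPM (log2 0.24, adjusted p = 0.0487). Both lay near the threshold. The FADS2 call was lost in 14 of 21 refits, 8 of which left out 1 library (siControl 2, any siTDP-43 library or any genotype library, adjusted p = 0.0501 to 0.207). The ELOVL6 call was lost in 13, of which 8 left out 1 library (siControl 2 or 3, siTDP-43 1 or 3 or any genotype library, adjusted p = 0.0577 to 0.21). SCD was at 192 and 187 TPM in wild type and at 198 and 191 TPM in N352S. FASN, ACLY and FADS1 were at 110%, 109% and 101% of wild type and were not called. ACLY was called higher with median-of-ratios scaling (adjusted p = 0.0283). ACACA was at 42.8 ± 3.1 and 37.0 ± 0.32 TPM and was called lower without siControl 3 (adjusted p = 0.0337). The increases of MVK, FDPS, FDFT1, INSIG1 and SREBF1 and the decrease of STARD4 were kept in all 21 refits.

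**Figure D3:**
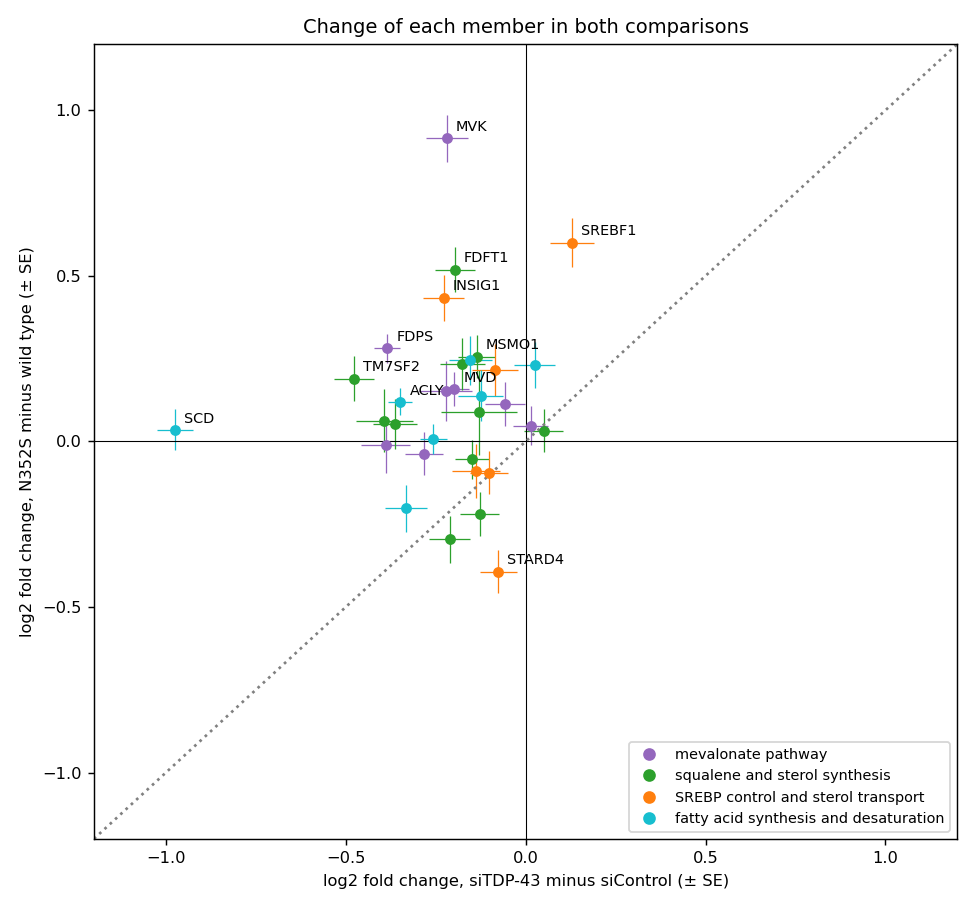
Log2 fold change of TPM + 1 in siTDP-43 against siControl (horizontal axis) and in N352S against wild type (vertical axis) for the 32 members, with SE bars and the line of equal change dotted. MVK, FDFT1, INSIG1 and FDPS lie in the upper left, lower after knockdown and higher in N352S, and STARD4 lies lowest.

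The responses to knockdown and to N352S were then compared directly as the difference of the 2 effects, which share no libraries. For 17 of the 32 members the effects differed, 16 with the knockdown effect lower than the N352S effect and 1, STARD4, with it higher. Over all tested genes the shares were 13.8% and 8.20%. The median difference was -0.33 over the members and -0.04 over all tested genes. MVK, FDPS, FDFT1 and INSIG1 were lower after knockdown and higher in N352S, a pattern held by 2.71% of all tested genes. FDPS alone of the 4 kept both calls in every refit, since the knockdown calls of MVK, FDFT1 and INSIG1 were lost with median-of-ratios scaling, with quantile normalization and without some libraries, as given above. SQLE was lower in both, as were 3.48% of all tested genes, and its effects did not differ by the test (difference 0.08, SE 0.09, adjusted p = 0.56). A group of 11 members was lower after knockdown and not called in N352S (13.6% of all tested genes). In N352S, 4 members were higher and 2 lower without a call after knockdown (4.60% and 7.28% of all tested genes), and 10 were called in neither (62.1%).

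The difference was largest for MVK, at -1.13 (SE 0.09, adjusted p = 5.84e-05), and for SCD, at -1.01 (SE 0.08, adjusted p = 5.43e-05). For SCD it came with a decrease after knockdown and a level in N352S of 102% of wild type. FDFT1 followed at -0.72 (SE 0.09, adjusted p = 0.000652). FDPS and TM7SF2 each differed by -0.67, with adjusted p = 7.93e-05 and 0.000896. INSIG1 differed by -0.66 (SE 0.09, adjusted p = 0.00107). SREBF1 differed by -0.47 (SE 0.10, adjusted p = 0.00794), with a call in N352S and none after knockdown. MVD, MSMO1 and ACLY also differed, and these 10 differences held in every refit. The difference for ACACA, called lower after knockdown alone, was -0.13 (SE 0.09, adjusted p = 0.355), so its 2 effects were not shown to differ. The same held for ACAT2 (difference -0.25, SE 0.08, adjusted p = 0.0663) and SC5D (difference -0.09, SE 0.07, adjusted p = 0.419). ACAT2, the thiolase, differed without siControl 1 (adjusted p = 0.0306). Pairing the siRNA libraries by replicate number ended the difference for IDI1 (adjusted p = 0.0609) and gave one to SREBF2 and to FASN (adjusted p = 0.0309 and 0.0287).

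The level in wild type ranged over the members from 65.8% of siControl (ELOVL6) to 198% (SREBF1). It was at 191% for INSIG1, 147% for MVD, 143% for SREBF2 and 141% for HMGCS1, and close to siControl for FADS1 and EBP (both 101%), IDI1 (99.0%), ACAT2 (96.1%) and GGPS1 (94.0%). The siControl cells were transfected and the wild-type cells belong to the genotype experiment, so the values are given side by side and were not tested. In siControl, FADS2 had the highest level of the 32 (285 TPM), followed by FDPS (260 TPM), and INSIG1 the lowest (17.4 TPM). The geometric mean of the 6 control and transport genes was 46.7 to 49.7 TPM in siControl, 44.6 to 46.8 in siTDP-43, 65.8 to 66.1 in wild type and 71.3 to 71.4 in N352S. That of the 8 mevalonate genes was 61.2 to 66.7, 54.5 to 56.1, 70.4 to 71.8 and 80.6 to 83.5 TPM in the same order. That of the 11 sterol genes was 42.8 to 44.8, 35.9 to 39.1, 47.3 to 47.7 and 49.1 to 51.3 TPM. That of the 7 fatty acid genes was 107 to 112, 84.2 to 91.8, 106 to 108 and 113 TPM in both N352S libraries. For 3 of the 4 roles siTDP-43 was the lowest group without overlap, and for control and transport its highest library lay just above the lowest siControl library.

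**Figure D4:**
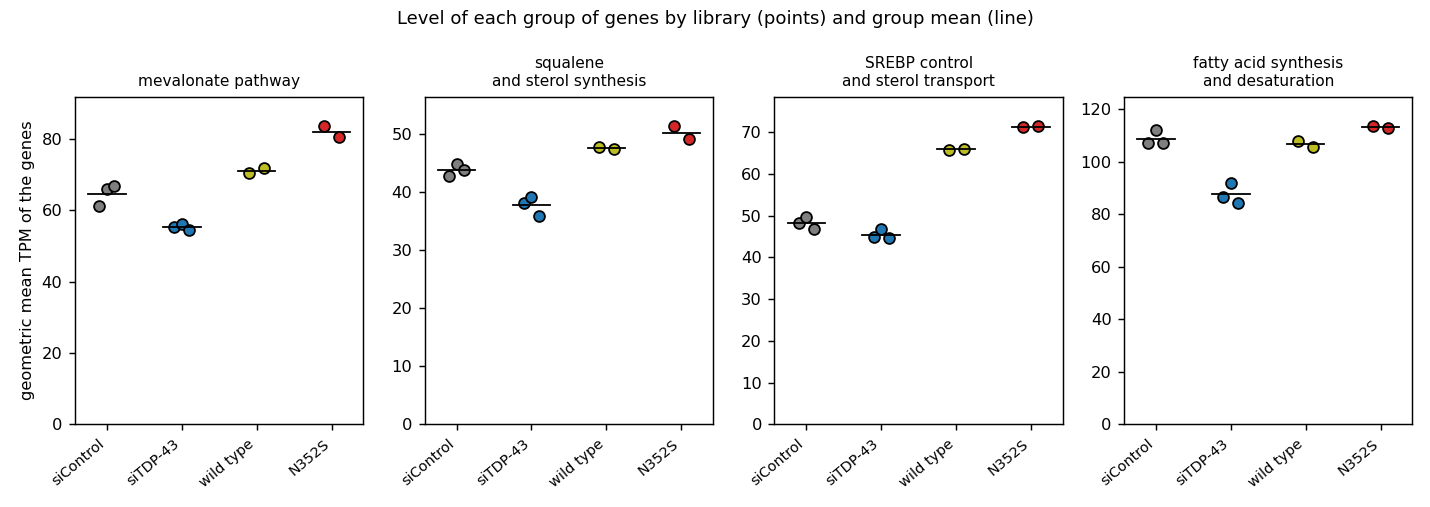
Geometric mean TPM (vertical axis, from 0) of the genes of each role in every library (points), with the group mean as a line, for the 4 groups on the horizontal axis. The siTDP-43 libraries are lowest in each panel, with an overlap with siControl for SREBP control and sterol transport, and the N352S libraries are highest.

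The wider lipid pathways were read from lists of other genes. Over all tested genes, 19.8% were called lower and 6.19% higher after knockdown, and 11.9% and 8.28% in N352S. Of 15 SREBP proteases and endoplasmic reticulum partners, 5 (33.3%) fell and 1 (6.67%) rose after knockdown. In N352S, 2 (13.3%) fell and 0 rose (limma, 1 higher without adjustment). MBTPS2, the site-2 protease that releases SREBPs in the Golgi, went from 33.7 to 20.3 TPM after knockdown (log2 -0.70, SE 0.05, adjusted p = 3.76e-05). In N352S it was at 29.8 TPM against 32.005 in wild type (adjusted p = 0.286), and the effects differed by -0.60 (SE 0.08, adjusted p = 0.000874). PAQR3, a Golgi anchor of the SCAP complex, went from 33.0 to 25.8 TPM (adjusted p = 0.00284) and SEC23A, a coat protein of the vesicles that leave the endoplasmic reticulum, from 30.9 to 23.0 TPM (adjusted p = 0.00344). In N352S, VCP, the segregase of endoplasmic reticulum degradation, went from 267 to 226 TPM (adjusted p = 0.00825, and 0.0675 without wild type 79). UFD1L, its cofactor, went from 101 to 88.3 TPM (adjusted p = 0.035). That call was lost without any one of 7 libraries (siControl 2, siTDP-43 1 or 3, or a genotype library, adjusted p = 0.0502 to 0.153).

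Of 16 genes of the isoprenoid branches, 0 fell and 1 (6.25%) rose after knockdown (limma, 3 lower and 2 higher without adjustment). In N352S, 4 (25%) fell and 0 rose (6 lower and 0 higher without adjustment). The shares of all tested genes were 19.8% and 6.19% after knockdown, and 11.9% and 8.28% in N352S. RCE1, a protease of prenylated proteins, was the one called after knockdown (25.2 to 29.1 TPM, adjusted p = 0.045). That call was lost without siControl 2 or 3, any siTDP-43 library or either wild-type library (adjusted p = 0.06 to 0.143), and on pairing by replicate number (adjusted p = 0.0562). ICMT, the methyltransferase of prenylated proteins, went from 51.7 TPM in wild type to 22.7 TPM in N352S (log2 -1.15, SE 0.05, adjusted p = 2.36e-06). ICMT lies on chromosome 1, and all 20 of its nearest tested protein-coding genes were also called lower in N352S, with a median of -0.88. FNTB, the farnesyltransferase beta subunit, went from 15.8 to 12.3 TPM (adjusted p = 0.0189, and 0.0504 to 0.106 without wild type 79 or 80 or N352S 82). PGGT1B, a prenyltransferase subunit, went from 23.1 to 18.0 TPM (adjusted p = 0.0291, and 0.0934 to 0.129 without wild type 79 or 80 or N352S 81).

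Of 22 genes of cholesterol esterification, export and egress, 18 were tested. After knockdown 4 fell and 4 rose (22.2% each, against 19.8% and 6.19% of all tested genes). In N352S 1 fell and 4 rose (5.56% and 22.2%, against 11.9% and 8.28%). NPC2, which hands cholesterol out of the lysosome, went from 83.0 to 68.3 TPM after knockdown (log2 -0.28, SE 0.05, adjusted p = 0.00552) and from 62.6 to 98.1 TPM in N352S (log2 0.64, SE 0.07, adjusted p = 0.000223). Its effects differed by -0.92 (SE 0.08, adjusted p = 0.000129). LIPA, the lysosomal acid lipase, went from 25.8 to 36.4 TPM after knockdown (log2 0.48, SE 0.06, adjusted p = 0.00065). MYLIP, a ubiquitin ligase for lipoprotein receptors, went from 2.25 to 3.72 TPM (adjusted p = 0.00466). In N352S MYLIP went from 2.395 to 3.71 TPM (adjusted p = 0.025, and 0.114 with only the groups compared in the fit). Its 2 effects were not shown to differ (difference 0.06, SE 0.16, adjusted p = 0.818). In N352S, GRAMD1B, a carrier of plasma membrane cholesterol, went from 6.93 to 19.4 TPM (log2 1.37, SE 0.08, adjusted p = 7.81e-06). Its relative GRAMD1A went from 79.0 to 95.2 TPM (adjusted p = 0.0117, and 0.0697 with only the groups compared in the fit). That call was also lost without wild type 80 or N352S 81 (log2 0.20 to 0.23). After knockdown GRAMD1A went from 62.9 to 56.4 TPM (adjusted p = 0.0376, and 0.259 with median-of-ratios scaling).

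Of 25 other genes of fatty acid activation, elongation and desaturation, 24 were tested. After knockdown 8 fell and 2 rose (33.3% and 8.33%, against 19.8% and 6.19% of all tested genes). In N352S 3 fell and 3 rose (12.5% each, against 11.9% and 8.28%). ACSL1, an acyl-CoA synthetase, went from 34.7 to 18.7 TPM after knockdown (log2 -0.86, SE 0.07, adjusted p = 0.000118). In N352S it went from 29.3 to 39.3 TPM (log2 0.41, SE 0.09, adjusted p = 0.0129, and 0.0778 to 0.0852 without wild type 80 or N352S 82). FADS3, a relative of FADS1 and FADS2, went from 15.2 to 8.45 TPM after knockdown (log2 -0.77, SE 0.10, adjusted p = 0.000856). MLXIP, a glucose-sensing transcription factor, went from 18.3 to 13.6 TPM after knockdown (adjusted p = 0.0025) and from 23.0 to 17.2 TPM in N352S (adjusted p = 0.00847, and 0.0664 without wild type 79). ACSS2, which makes acetyl-CoA from acetate, went from 22.5 to 37.2 TPM in N352S (adjusted p = 0.00588, and 0.0593 with only the groups compared in the fit). DBI, an acyl-CoA binding protein, went from 216 to 253 TPM in N352S (adjusted p = 0.00874). That call was lost without wild type 79 (log2 0.20). After knockdown DBI went from 219.88 to 197 TPM (adjusted p = 0.0158, and 0.183 with median-of-ratios scaling).

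Of 22 genes of fatty acid oxidation, 21 were tested. After knockdown 6 (28.6%) fell and 0 rose, against 19.8% and 6.19% of all tested genes. In N352S 0 fell and 6 (28.6%) rose, against 11.9% and 8.28% of all tested genes. Without adjustment in limma, 3 were higher after knockdown and 3 lower in N352S. DECR1, a reductase for unsaturated fatty acids, went from 32.3 to 51.2 TPM in N352S (log2 0.65, SE 0.08, adjusted p = 0.000585). PPARD, a fatty acid receptor, went from 22.6 to 30.7 TPM (adjusted p = 0.0022), and ETFB, an electron carrier of the pathway, from 33.5 to 44.6 TPM (adjusted p = 0.00261). After knockdown, CPT2, ACAA2 and ECI2, of carnitine transfer and the oxidation cycle, were at log2 -0.25, -0.18 and -0.20 (adjusted p = 0.00931, 0.0105 and 0.0111), and all 3 calls were lost with median-of-ratios scaling and with quantile normalization. Of 24 phospholipid and triglyceride genes, 23 were tested. After knockdown 5 fell and 2 rose (21.7% and 8.7%, against 19.8% and 6.19% of all tested genes). In N352S 4 fell and 2 rose (17.4% and 8.7%, against 11.9% and 8.28%). AGPAT3, an acyltransferase for phosphatidic acid, went from 32.4 to 20.4 TPM after knockdown (log2 -0.65, SE 0.06, adjusted p = 0.000153), and AGPAT2 from 25.4 to 19.3 TPM (adjusted p = 0.000584). PCYT2, of phosphatidylethanolamine synthesis, went from 32.02 to 22.6 TPM after knockdown (log2 -0.49, SE 0.07, adjusted p = 0.00105). In N352S it went from 40.6 to 50.9 TPM (adjusted p = 0.0244, and 0.0731 to 0.125 without wild type 79 or 80 or N352S 81). AGPAT5, CHKA and GPAM, of glycerolipid and choline phosphate synthesis, were at log2 -0.31, -0.27 and -0.35 in N352S (adjusted p = 0.00754, 0.0148 and 0.0236). Without wild type 79 these adjusted p were 0.0622 for AGPAT5, 0.0636 to 0.0722 for CHKA (also without wild type 80 or N352S 81) and 0.129 to 0.156 for GPAM (also without N352S 82).

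**Figure D5:**
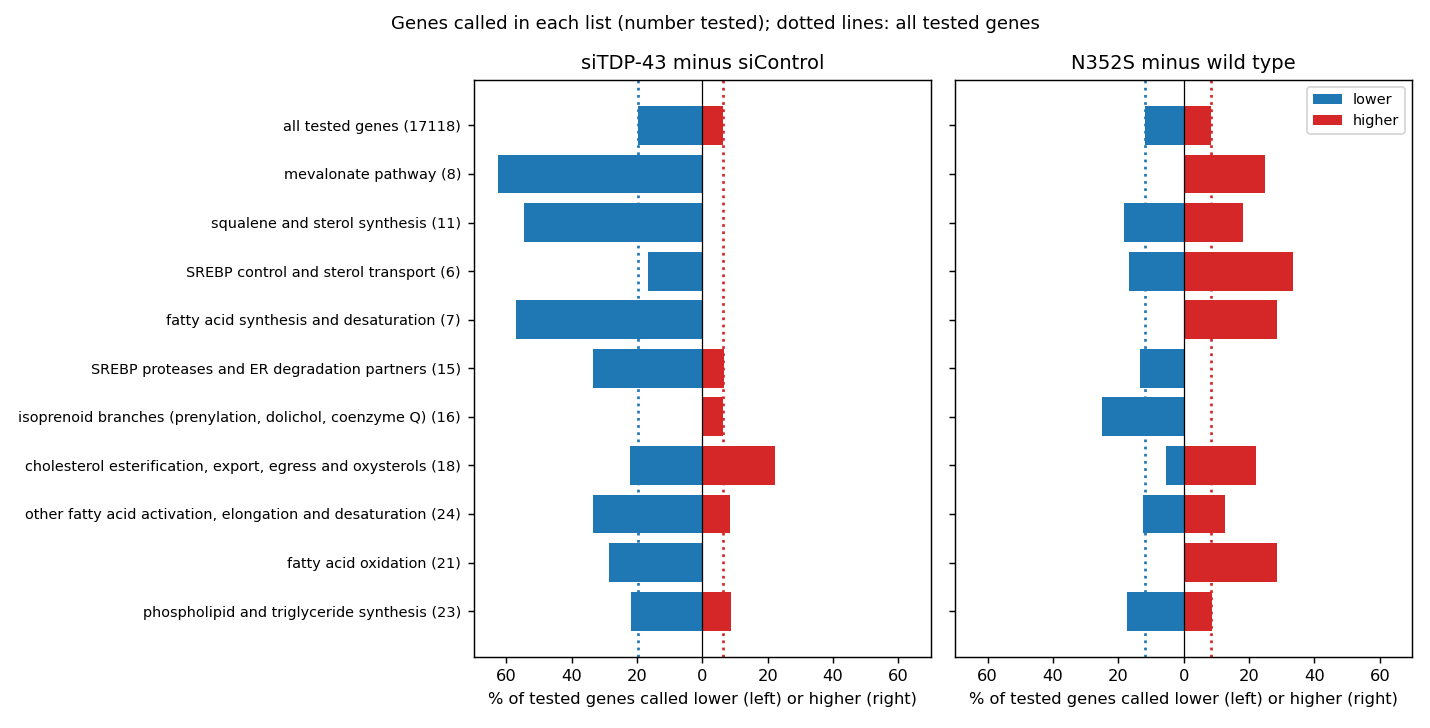
Share of tested genes called lower (left of 0, blue) or higher (right of 0, red) in each list (vertical axis, number tested in brackets) for siTDP-43 against siControl and N352S against wild type, in percent on the horizontal axis. Dotted lines give the shares of all tested genes, 19.8% lower and 6.19% higher after knockdown and 11.9% lower and 8.28% higher in N352S.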

How the data were processed

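The deposited table holds TPM for 58174 genes in 10 libraries. Per the submitters' processing notes, the authors made these TPM values with RSEM and STAR on the hg38 build. Versions, gene annotation and strand setting are not given in the sources. Trizol RNA and an Illumina TruSeq RNA kit were used, per the labels' protocols. In each library TPM sum to 999999 to 1000000, which keeps no depth, so no counting interval can be given. The 17118 genes that averaged 1 TPM or more were fitted as log2(TPM + 1), which understates the change of low genes, in limma 3.58.1 (R 4.3.3) with all 4 groups, a mean-variance trend and 6 residual degrees of freedom. The pairs of genotype libraries are thereby assumed to vary like the siRNA libraries. The fit was tested on simulated data. Calls used a Benjamini-Hochberg adjusted p under 0.05 over all tested genes. The members and the other gene lists were chosen with earlier results of these data known. Values in every library were printed for the 5 regulators SREBF1, SREBF2, SCAP, INSIG1 and INSIG2, for members called in both comparisons and for the 3 lowest and 3 highest called changes in each. The exceptions were MVD and SC5D, whose small decreases after knockdown are given as means with SD. From each other list, up to 3 genes per comparison with the smallest adjusted p were named. MMAB and the other overlapping genes were added after their values were seen. The 22 alternatives covered the pseudocount, the filter, scaling, the variance model, the threshold, the groups fitted, pairing by replicate number and leaving out each of the 10 libraries. Deviations from the group means of same-numbered siControl and siTDP-43 libraries, whose numbers come from the titles, correlated at 0.336, 0.137 and 0.198, so the pairing is printed where it changed a call. The genotype libraries share no numbers. Gene positions are from GENCODE 29 (57836 of 58174 identifiers matched) and promoter sequences from RefSeq (GRCh38.p14). A further list of cell type markers is not reported here.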

Additional observations from a re-analysis of the deposited data

Results flagged for a closer look

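Each value here is the knockdown effect minus the N352S effect on the log2 scale, from the limma test of that difference, in genes for which it passed an adjusted p under 0.05. Among the members, the difference was -1.13 for MVK, -1.01 for SCD, -0.72 for FDFT1, -0.67 for FDPS, -0.67 for TM7SF2 and -0.66 for INSIG1. It was -0.47 for SREBF1, -0.47 for ACLY, -0.46 for DHCR7, -0.42 for CYP51A1, -0.41 for EBP and -0.40 for ELOVL6. It was -0.39 for MSMO1, -0.38 for IDI1, -0.36 for MVD and -0.26 for FADS1, and 0.32 for STARD4. The calls of DHCR7 and STARD4 were each lost without any one of 6 libraries (adjusted p = 0.0559 to 0.0935 and 0.0511 to 0.0952), as was that of IDI1 (adjusted p = 0.061 to 0.135). Those of EBP and ELOVL6 were lost without wild type 79 or N352S 81, that of CYP51A1 without wild type 80 (adjusted p = 0.0537) and that of FADS1 without wild type 79 (adjusted p = 0.0552).

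TARDBP, the targeted gene, differed by -1.27, and MMAB, which starts beside MVK, by -0.81. Among the other lipid genes, the difference was -1.43 for GRAMD1B, -1.27 for ACSL1, -0.92 for NPC2, -0.84 for DECR1, -0.80 for PCYT2 and -0.71 for ACSS2. It was -0.71 for FADS3, -0.64 for AGPAT3, -0.60 for MBTPS2, -0.42 for GRAMD1A, -0.38 for DBI and -0.34 for ACAA2. It was -0.32 for AGPAT2, -0.30 for PAQR3 and -0.28 for PPARD. It was positive for ICMT (1.15), FNTB (0.47), LIPA (0.41) and RCE1 (0.35). The differences of PAQR3, PPARD and RCE1 were lost without any one of 9, 8 and 6 libraries. Those of FADS3 (-0.68 to -0.63) and AGPAT2 (-0.28 to -0.27) were lost without wild type 79 or N352S 82. That of ACSS2 was lost without N352S 82 (-0.69), and that of LIPA without wild type 80 (0.39).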

How the results depend on the processing

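No called member changed sign in any alternative. With median-of-ratios scaling and with quantile normalization, 10 members were lower and 1 (SREBF1) higher after knockdown, and over all tested genes the calls were 2077 lower and 1944 higher, and 2015 lower and 1932 higher. With the stricter adjusted p under 0.01, 5 members were higher and 1 lower in N352S, against 4.38% and 5.66% of all tested genes. The effects then differed for 10 members lower and 0 higher, against 7.31% and 3.94%. With only the groups compared in the fit, 5 were higher in N352S, against 5.26% of all tested genes. Without the filter on low TPM, and with the variance trend left out, 0 members had a higher knockdown effect, against 3.23% and 7.54% of all genes tested. Leaving out 1 siRNA library at a time gave 12 to 16 members lower and 0 higher after knockdown, against 14.6 to 18.7% and 3.91 to 5.5% of all tested genes. In N352S it gave 2 to 3 lower and 6 to 8 higher, against 10.2 to 12.8% and 7.47 to 9.08%. For the difference it gave 14 to 19 lower and 0 to 1 higher, against 11.4 to 13.2% and 6.16 to 8.51%. Without a genotype library, which left 1 in its group, fewer members were called in N352S, with a median change of 0.07 to 0.13. The median difference was then -0.37 to -0.31. The paired fit by replicate number, possible for the siRNA libraries, gave 16 lower and 0 higher after knockdown, against 19% and 6.08% of all tested genes. It gave 17 lower and 1 higher for the difference, against 13% and 7.68%, and changed no other call of a member than those named above. The cause of these changes was not tested. Depth is unknown, and with 2 libraries a group the genotype calls near the threshold are the least certain.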
